A study of Mus musculus with 10 samples.

Results

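Ribosomal protein genes were followed in mouse kidneys carrying human APOL1 alleles, as 2 sets: the genes for proteins of the cytosolic ribosome and those for proteins of the mitochondrial ribosome. Members were protein-coding genes chosen by symbol: Rpl or Rps followed by a number, or Rplp0 to Rplp2, without the Rps6k kinases, for the cytosolic set, and Mrpl or Mrps followed by a number for the mitochondrial set. The rule found 169 genes among the 46517 gene identifiers counted, of which 91 were cytosolic and 78 mitochondrial. It used no measured value, but the members were chosen with earlier results of these data known.

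The 10 libraries were poly(A)-selected RNA from whole kidney, in 4 genotype groups. Kidneys labelled G1-APOL1 (n = 2) and G2-APOL1 (n = 2) carried one of the APOL1 risk alleles, human gene variants known for their association with kidney disease, and the series title places their expression in mouse podocytes. A group labelled wild type (single mutant) had 3 libraries and one labelled Control another 3, and these 6 are called the reference kidneys. The labels give no promoter, strain, age or sex, and do not say what "single mutant" means, whether a kidney that expresses a transgene without a risk variant is among the reference kidneys, or whether each library is a separate mouse, so p-values measure only the spread between these libraries. The titles of the wild type (single mutant) libraries carry mixed prefixes. Replicate numbers follow accession order within a group, only name libraries and pair none. Reads of human APOL1 were not analysed here, which leaves the genotypes as the labels give them.

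Library totals ran from 27596391 to 34815153 counts, and no pair of libraries agreed within sampling noise. Kidney identity was clear from 12 proximal tubule markers, which summed to between 16500 and 19100 CPM (counts per 1000000 counts of a library) in the reference kidneys. Of 6 testis markers, between 3 and 6 were at 0 in each library. All levels below are CPM over library sizes scaled by trimmed means (TMM) unless stated, and a gene was called when the adjusted p of edgeR's quasi-likelihood test over all 17823 genes tested was under 0.05. "Risk alleles" means the average of the G1 and G2 group means. In 10 libraries of whole kidney, fewer cells of a type and less RNA per cell cannot be told apart.

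The cytosolic ribosome translates the messages of nuclear genes, and it is built from a large and a small subunit whose proteins are needed in fixed proportion. Transcripts of its proteins are among the most abundant in any cell, and most of them start with a run of pyrimidines, the 5′ terminal oligopyrimidine tract, through which their translation follows growth signals such as mTOR. The mitochondrial ribosome is a separate machine, encoded by nuclear genes and imported, that translates only the few proteins of the oxidative phosphorylation chain that mitochondrial DNA encodes. Proximal tubule, the bulk of the kidney cortex, is rich in mitochondria.

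Start sites of 6 members that the results below turn on are printed here. RefSeq start sites on GRCm38.p6 were matched for 134 of the 169 members, 65 cytosolic and 69 mitochondrial. Each line runs 5′ to 3′ from 30 bases before to 20 bases after the start site, and capitals mark a pyrimidine tract, counted where a C followed by at least 5 more C or T began between positions -5 and 6 around the start. Rpl12 (chr2:32961682-32961731, + strand), which had the largest rise of its set, and Rps27 (chr3:90213629-90213678, - strand) are core cytosolic members. Rpl22l1 (chr3:28805478-28805527, + strand) and Rpl3l (chr17:24727796-24727845, + strand) are like paralogs that moved in opposite directions. Mrpl33 (chr5:31613921-31613970, + strand) and Mrpl12 (chr11:120484607-120484656, + strand) are mitochondrial members that did the same.
Rpl12: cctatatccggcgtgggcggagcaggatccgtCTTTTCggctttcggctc
Rps27: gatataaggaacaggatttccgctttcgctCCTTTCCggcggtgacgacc
Rpl22l1: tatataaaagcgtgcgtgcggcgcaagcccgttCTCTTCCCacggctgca
Rpl3l: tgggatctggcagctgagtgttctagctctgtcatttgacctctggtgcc
Mrpl33: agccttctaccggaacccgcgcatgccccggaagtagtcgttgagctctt
Mrpl12: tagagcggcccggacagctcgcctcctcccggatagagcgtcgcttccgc

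A tract by this definition was found at 25 of 65 cytosolic start sites (38.5%), at 4 of 69 mitochondrial ones (5.8%) and at 1646 of 16348 protein-coding start sites (10.1%). RefSeq starts can lie away from the starts of the gene models that were counted, by 153 bases for Rpl12 and 3 bases for Rps27, so a missing tract says only that these letters are not in this window. In the longer window from 250 bases before to 50 after the start, on both strands, the ETS-family letters CCGGAAG occurred in 35.4% of cytosolic and 36.2% of mitochondrial promoters, against 12.4% of all promoters. The YY1 letters AAGATGGC occurred in 7.69% and 17.4%, against 3.35% of all. The NRF1 letters GCATGCGC, named for a factor known for driving mitochondrial genes, occurred in 4.62% and 11.6%, against 3.84%. The TATA letters TATAAA occurred in 9.23% and 5.8%, against 12.7%. A match is a description of sequence and shows no binding.

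Together the cytosolic members took up more of each risk allele library than of any reference library. They made up 2.81% and 3.11% of all counts in the G1 libraries and 2.67% and 2.26% in the G2 libraries, against 1.45%, 1.40% and 1.55% in wild type (single mutant) and 1.81%, 1.65% and 1.44% in Control. The mitochondrial members took up 0.394% to 0.441% of the risk allele libraries and 0.373% to 0.409% of the reference libraries, so their ranges overlapped.

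The contrast of the sets is carried by their ratio, which does not depend on how libraries are scaled. Cytosolic counts were 7.12 and 7.47 times the mitochondrial counts in the G1 libraries and 6.05 and 5.61 times in the G2 libraries. The ratio was 3.84, 3.52 and 4.07 in wild type (single mutant) and 4.42, 4.21 and 3.85 in Control. All 4 risk allele libraries thus lay above all 6 reference libraries, and both G1 libraries lay above both G2 libraries, with group means of 7.3 ± 0.25 for G1 (SD, n = 2), 5.83 ± 0.308 for G2 (SD, n = 2), 3.81 ± 0.274 for wild type (single mutant) (SD, n = 3) and 4.16 ± 0.288 for Control (SD, n = 3). Without the like paralogs, the retrocopy symbols and the binding protein Rps19bp1, the group means were 7.17, 5.73, 3.73 and 4.08 in the same order.

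**Figure D1:**
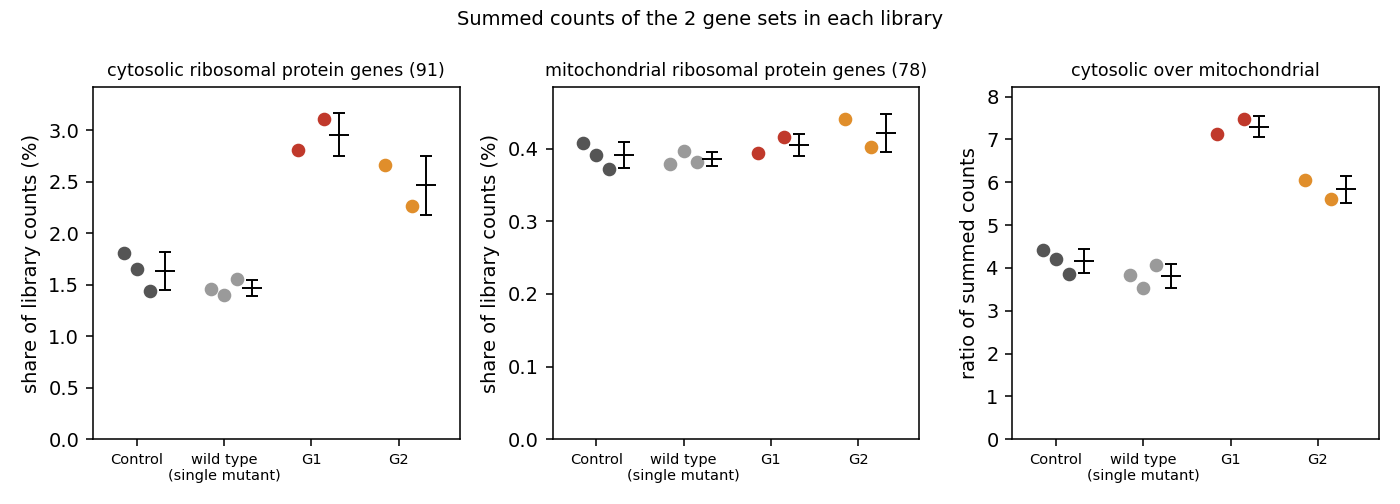
Share of all counts in each library taken by the 91 cytosolic and the 78 mitochondrial ribosomal protein genes (%), and the ratio of the 2 sums, by genotype group; points are libraries, bars the group mean with its SD. The cytosolic share was 2.26% to 3.11% in risk allele libraries and 1.40% to 1.81% in the others, the mitochondrial shares overlapped, and the ratio separated the 4 risk allele libraries from the other 6.

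Levels per kilobase of transcript placed the sets apart in every group. The median cytosolic member had 238 CPM per kilobase in Control, 221 in wild type (single mutant), 336 in G1 and 300 in G2, over the 85 members that passed the filter on low counts. The median mitochondrial member, over 78, had 34.1, 34.5, 29.3 and 30.8 in the same order. In Control the highest cytosolic members per kilobase were Rplp1, of the acidic stalk that recruits translation factors, at 853, Rps15 at 750 and Rps21 at 599. The highest mitochondrial ones were Mrps21 at 212, Mrpl12 at 197 and Mrpl42 at 138. The lowest were Mrpl53 at 1.14, Mrpl23 at 3.39 and Mrpl19 at 4.18 CPM per kilobase. Exons of other annotated genes covered 88% of the exonic bases of Mrpl53 and 36% of those of Mrpl19, and the levels of both are uncertain for that reason.

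In the risk allele kidneys 59 of 85 cytosolic members rose against Control and 1 fell, whereas 27 of 78 mitochondrial members fell and 2 rose. Over all genes tested, 19.3% were called higher and 18% lower. Of the cytosolic members 69.4% were called higher and 1.18% lower. Of the mitochondrial members 2.56% were called higher and 34.6% lower. The median log2 fold change was 0.44 for the cytosolic members, -0.17 for the mitochondrial members and 0.00 for all genes. The middle of the cytosolic distribution ran from 0.35 to 0.60 between its quartiles, and 80 of 85 values were positive, whereas 61 of 78 mitochondrial values were negative. The counts depended on single libraries. Without Control replicate 3, 34 cytosolic members were called higher, and all genes called higher went from 3441 to 2632. Fewer cytosolic members were also called higher without G1 replicate 2 or G2 replicate 1, and fewer mitochondrial members lower without G1 replicate 2. Those fits without a G1 or G2 library left 1 library in a group.

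The sign of the mitochondrial median depended on the scaling. TMM factors were 1.06 to 1.17 in the risk allele libraries and 0.88 to 0.953 in the others, and with library totals alone the median of all genes rose from 0.00 to 0.28. On that scale the mitochondrial median was 0.11 and the cytosolic one 0.71, with 15 mitochondrial members called higher and 4 lower, and 76 cytosolic members called higher and 1 lower, while 6036 of all genes were called higher and 1601 lower. On both scales the mitochondrial median lay below that of all genes and the cytosolic median above it. A change of scale moves all genes of a library nearly alike, so this order could hardly change.

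**Figure D2:**
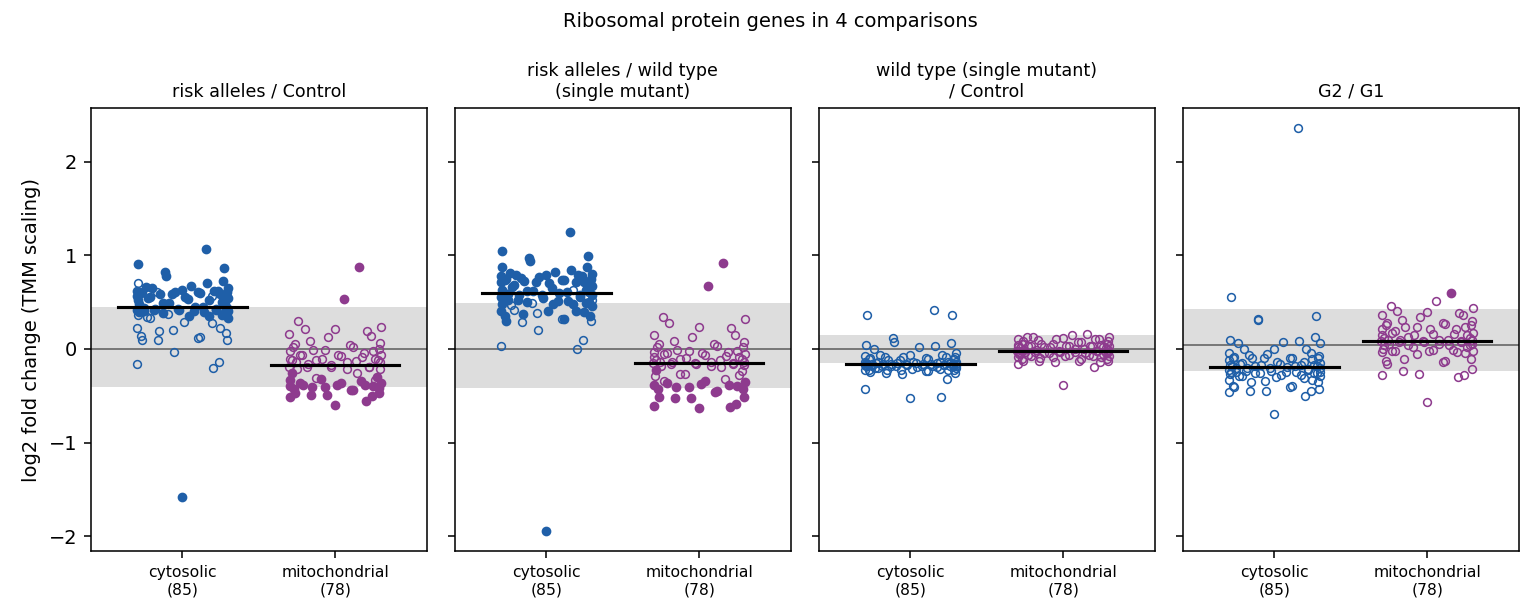
Log2 fold change of each tested cytosolic (85) and mitochondrial (78) ribosomal protein gene in 4 comparisons; filled points passed an adjusted p of 0.05 (edgeR), black lines are set medians, and the grey band and line are the quartiles and median of all 17823 genes. Against Control the cytosolic median was 0.44 and the mitochondrial median -0.17, which became 0.11 with library totals alone.

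Individual cytosolic members of both subunits showed the difference library by library. Rpl12, a large subunit protein near the stalk, was at 438 and 441 CPM in G1, 370 and 274 in G2, 161, 144 and 170 in wild type (single mutant) and 205, 185 and 148 in Control. Every risk allele library was above every other library, and the log2 fold change against Control was 1.07 ± 0.14 (SE; edgeR, adjusted p = 0.000712), the largest of the set. Rps12, of the small subunit, was at 538 and 590 CPM in G1, 505 and 376 in G2, 243, 227 and 253 in wild type (single mutant) and 299, 257 and 242 in Control. Its values did not overlap either, and the change was 0.91 ± 0.13 (adjusted p = 0.000829).

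Rpl39, a very small protein of the exit tunnel, stood at 154 and 157 CPM in G1, 135 and 101 in G2, 68.7, 64.4 and 74.2 in wild type (single mutant) and 85.4, 73.2 and 64.2 in Control, a change of 0.87 ± 0.13 (edgeR, adjusted p = 0.00123). Rps15a, of the small subunit, stood at 235 and 249 in G1, 225 and 181 in G2, 139, 132 and 133 in wild type (single mutant) and 154, 141 and 133 in Control, a change of 0.63 ± 0.10 (edgeR, adjusted p = 0.00139). In both genes the lowest risk allele value was the second G2 library, which still lay above all 6 reference kidneys. Rps20, Rps16, Rpl36a, Rpl23a, Rps26 and Rps24 completed the 10 cytosolic members with the lowest p and rose by 0.62 to 0.78 on the log2 scale. Other genes covered 62.3% of the exonic bases of Rpl23a, mostly Tlcd1 on the other strand, so its reads cannot be told apart without a strand setting.

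Both subunits contributed. Of the large subunit members 35 of 52 rose and 1 fell, with a median of 0.45, and of the small subunit members 24 of 33 rose, with a median of 0.44 and no member lower even at an unadjusted p under 0.05 in edgeR. Values of the 4 risk allele libraries lay wholly above the 3 Control libraries for 40 of 85 cytosolic members (47.1%), against 20.7% of all genes tested. They lay above all 6 reference libraries for 39 (45.9%), against 16.4% of all genes. Among the 76 core members, 58 rose and 0 had an unadjusted p under 0.05 in the lower direction. The 18 core members that edgeR did not call included Rpl10 (0.12, adjusted p = 0.438), Rps15 (0.35, adjusted p = 0.0672) and Rps21 (0.17, adjusted p = 0.359). Of the 25 members with a pyrimidine tract at the start site 19 rose, with a median of 0.49. Of the 38 tested members with a matched start site and no tract in it 25 rose and 1 fell, with a median of 0.41.

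A few cytosolic members varied widely among kidneys of one group and were singled out after their values were seen. Rpl29, a large subunit protein, was at 21, 144 and 79.9 CPM in the 3 Control libraries, 97 and 184 in G1 and 184 and 22.6 in G2, and was not called (0.56, adjusted p = 0.569). Over the 6 reference libraries its highest value was 6.86 times its lowest. That ratio had a median of 1.33 over the 81 cytosolic members with at least 10 CPM, was over 2 for 5 of them and over 1.5 for 12. Over 76 mitochondrial members it had a median of 1.24, was over 1.5 for 2 and over 2 for none. Many ribosomal protein genes have near-identical processed pseudogenes, so reads can be split or lost between copies. The 260 pseudogene loci with ribosomal protein symbols summed to 250.6 to 282.9 CPM in the risk allele libraries and 110.8 to 218.6 CPM in the others, and the part this sharing has in any one member's value was not tested.

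The like paralogs, close relatives of a core protein that can replace it in some tissues, did not move as one. Of 7, 5 passed the filter, of which 1 rose, 1 fell and 3 were not called. Rpl22l1, the relative of Rpl22, was at 78.3 and 70.2 CPM in G1, 71.9 and 45.4 in G2, 37, 42.5 and 32.2 in wild type (single mutant) and 48.4, 35.3 and 46.5 in Control, with the second G2 library inside the Control range. It rose by 0.60 ± 0.18 (edgeR, adjusted p = 0.0278) and Rpl22 by 0.39 ± 0.11 (adjusted p = 0.0212). Leaving out Control replicate 2, Control replicate 3, G1 replicate 2 or G2 replicate 1 ended each of these 2 calls, as did leaving out G1 replicate 1 for Rpl22l1 (edgeR, adjusted p up to 0.0897 for Rpl22l1 and 0.0804 for Rpl22).

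Rpl3l, a form of Rpl3 known from heart and skeletal muscle, was scarce at 0.262 and 0.327 CPM in G1, 1.33 and 1.72 in G2, 1.44, 4.75 and 1.63 in wild type (single mutant) and 1.35, 1.92 and 2.78 in Control. Both G1 libraries lay below the other 8, while G2 overlapped the reference kidneys. It fell by 1.58 ± 0.46 (SE, log2; edgeR, adjusted p = 0.0258) and was the single cytosolic member called lower, whereas Rpl3 rose by 0.57 ± 0.12 (adjusted p = 0.00715). Its call was lost when Control replicate 2, Control replicate 3, either G1 library or G2 replicate 1 was left out, with adjusted p up to 0.0945 in edgeR. Of 8 skeletal muscle markers, 3 passed the filter and summed levels were 2.1 to 3.83 CPM in the risk allele kidneys and 1.35 to 2.15 CPM in the others; the part of muscle in the Rpl3l values was not tested.

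Rpl36al, the autosomal relative of the X-linked Rpl36a, was at 60 and 62.4 CPM in G1, 72.8 and 56.4 in G2, 59.3, 70.4 and 59.5 in wild type (single mutant) and 72.9, 71.3 and 66.4 in Control. The groups overlapped (-0.16 ± 0.11, edgeR, adjusted p = 0.274), while Rpl36a rose by 0.72 ± 0.13 (adjusted p = 0.00316). Rps27l, a p53-responsive relative of Rps27, changed by 0.28 ± 0.11 (adjusted p = 0.0678) and Rpl7l1 by 0.10 ± 0.10 (adjusted p = 0.471), and neither was called, whereas Rps27 and Rpl7 rose by 0.42 ± 0.12 (adjusted p = 0.0245) and 0.59 ± 0.11 (adjusted p = 0.00368). The call of Rps27 was lost in edgeR without any one of the 5 libraries named for Rpl3l, with adjusted p up to 0.0859. Rpl10l and Rpl39l, known as testis forms, had at most 0.0498 CPM in a library and were not tested. Of 7 members with retrocopy symbols 3 were tested, none was called in edgeR, and none had an unadjusted p under 0.05.

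**Figure D3:**
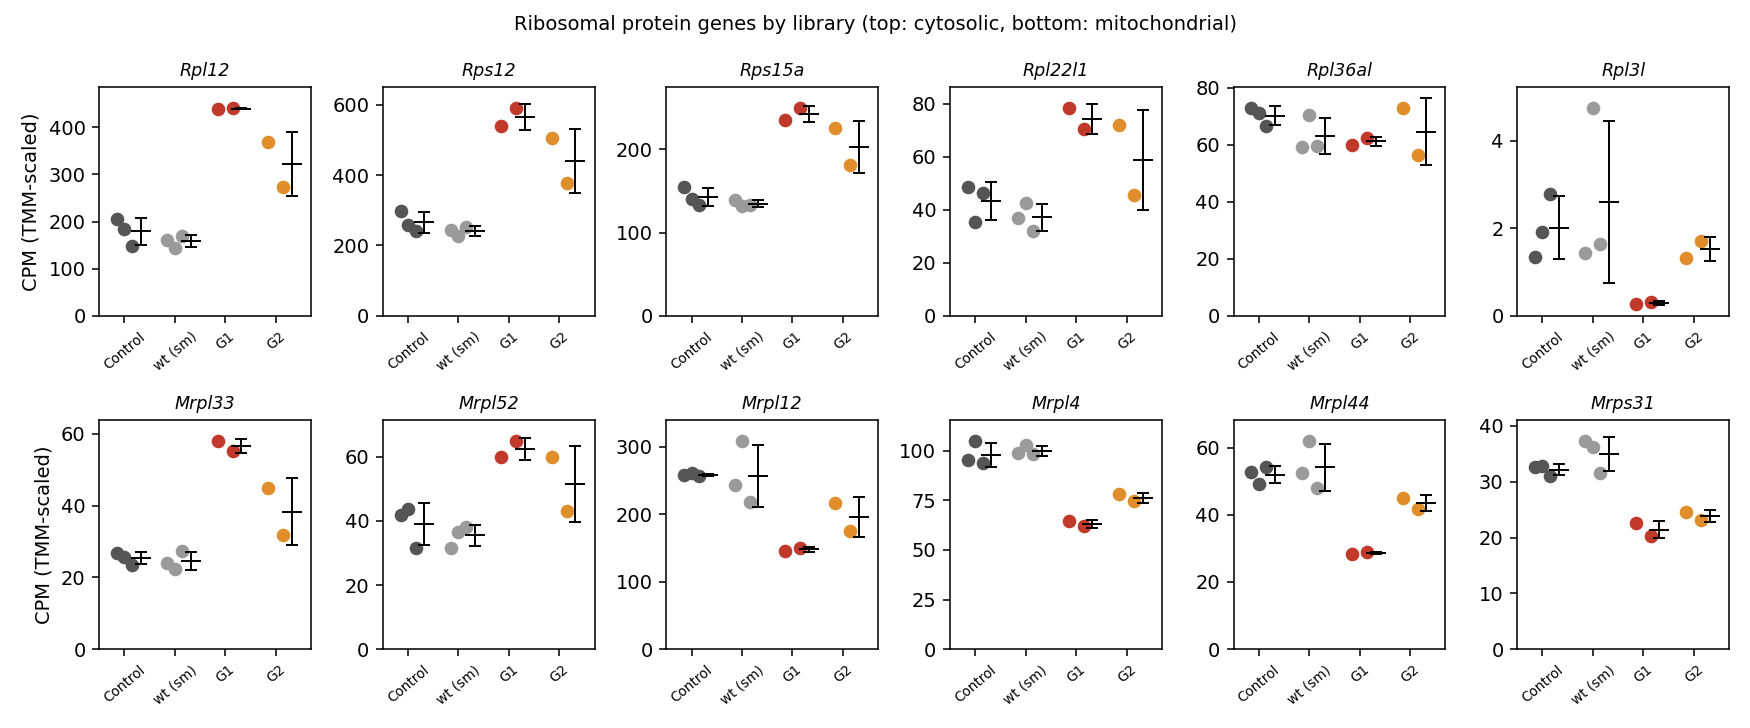
CPM (TMM-scaled) of 6 cytosolic (top) and 6 mitochondrial (bottom) ribosomal protein genes in each library, by group; points are libraries, bars the group mean with its SD, and wt (sm) is wild type (single mutant). Rpl12, Rps12 and Rps15a stood above all reference kidneys in the 4 risk allele libraries, as did Mrpl33, while Mrpl4, Mrpl44 and Mrps31 stood below them.

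Mitochondrial members that fell came from both subunits. Mrpl4, of the large subunit, was at 64.6 and 61.9 CPM in G1, 78 and 74.4 in G2, 98.7, 103 and 98.3 in wild type (single mutant) and 95.1, 105 and 93.9 in Control. All 4 risk allele libraries were below all 6 others, and the change was -0.50 ± 0.07 (SE, log2; edgeR, adjusted p = 0.00102). Mrps31, of the small subunit, was at 22.5 and 20.3 in G1, 24.6 and 23.1 in G2, 37.2, 36.1 and 31.6 in wild type (single mutant) and 32.7, 32.8 and 31 in Control, likewise without overlap, and changed by -0.51 ± 0.09 (adjusted p = 0.00215).

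Mrpl12, a large subunit protein of the stalk that also binds the mitochondrial RNA polymerase, was at 146 and 151 CPM in G1, 217 and 176 in G2, 243, 308 and 219 in wild type (single mutant) and 258, 261 and 257 in Control. It had the most negative change of the set, -0.60 ± 0.13 (edgeR, adjusted p = 0.0059), with its G2 values between those of G1 and the reference kidneys. Mrpl44, a large subunit protein with a ribonuclease fold, was at 28.4 and 28.9 in G1, 45.1 and 41.8 in G2, 52.4, 61.9 and 48 in wild type (single mutant) and 52.8, 49.1 and 54.2 in Control, a change of -0.56 ± 0.10 (edgeR, adjusted p = 0.00238). Mrps23, Mrps5, Mrpl50, Mrpl10 and Mrps12 fell by 0.39 to 0.50 on the log2 scale. With library totals alone these 9 genes still had negative values, but Mrps23, Mrps5, Mrpl50, Mrpl10 and Mrps12 were no longer called (-0.11 to -0.23), while Mrpl4 (-0.22), Mrps31 (-0.24), Mrpl12 (-0.33) and Mrpl44 (-0.29) were.

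Mrpl33 and Mrpl52 went the other way. Mrpl33, a small protein of the large subunit, was at 58 and 55.2 CPM in G1, 44.9 and 31.7 in G2, 24, 22.3 and 27.4 in wild type (single mutant) and 26.8, 25.6 and 23.5 in Control. All 4 risk allele libraries lay above the other 6, the only mitochondrial member of which this was true, and it rose by 0.88 ± 0.13 (edgeR, adjusted p = 0.00114). Its 300-base promoter holds both the ETS and the NRF1 letters. So do the promoters of Mrpl17, Mrpl22 and Mrps18b, whose log2 fold changes were 0.04, -0.19 and -0.31. Mrpl52, also of the large subunit, was at 60 and 64.8 in G1, 59.8 and 43.1 in G2, 31.7, 36.6 and 38.1 in wild type (single mutant) and 41.9, 43.8 and 31.7 in Control, with the second G2 library inside the Control range. It rose by 0.53 ± 0.15 (edgeR, adjusted p = 0.022), and leaving out Control replicate 3, G1 replicate 2 or G2 replicate 1 ended that call (adjusted p up to 0.0724).

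Subunits were taken from the symbols alone, which need not match where a protein sits. By this split, 15 of 49 large subunit members fell and 2 rose (median -0.14). Of the small subunit members 12 of 29 fell (median -0.19), with none higher at an unadjusted p under 0.05 in edgeR. With library totals alone both medians turned positive, 0.13 and 0.08. Risk allele values lay wholly below Control for 23 of 78 mitochondrial members (29.5%), against 17.7% of all genes, and wholly above for 2 (2.56%), against 20.7%. Below all 6 reference libraries the count was 18 (23.1%), against 14% of all genes. No cytosolic member lay wholly below Control. Transcript length differed between the sets, with a median of 761 bases for cytosolic and 1250 bases for mitochondrial members. Other protein-coding genes of 500 to 1000 bases (880 genes) had a median log2 fold change of 0.04, with 23.2% called higher and 16.4% lower. Those of the next length class, which holds the mitochondrial median length (3519 genes), had a median of 0.05, with 23.8% called higher and 17.3% lower. The median levels of these 2 classes were 15.5 and 17.4 CPM, against 218 for cytosolic and 48.1 for mitochondrial members. They are thus not matched in level, and the part of length was not tested.

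Against wild type (single mutant), which shares the risk allele libraries with the comparison above, 71 of 85 cytosolic members rose and 1 fell, where 20.7% of all genes were called higher and 19.3% lower. Of the mitochondrial members 22 fell and 2 rose. The medians were 0.59 for the cytosolic and -0.14 for the mitochondrial members, and the latter was 0.14 with library totals alone. Rpl12 rose by 1.25 ± 0.15 (edgeR, adjusted p = 0.000333), Mrpl33 by 0.92 ± 0.13 (adjusted p = 0.000802) and Rpl3l fell by 1.94 ± 0.46 (adjusted p = 0.00936).

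Between wild type (single mutant) and Control no member was called by edgeR, DESeq2 or limma voom, where 0% of all genes were called higher and 0% lower by edgeR. No member had an unadjusted p under 0.05, as 724 of all genes did. Cytosolic values were negative for 76 of 85 members with a median of -0.16, and mitochondrial values for 43 of 78 with a median of -0.02. The cytosolic median per library, as log2(CPM + 1) against the Control mean, was -0.18, -0.18 and -0.09 in wild type (single mutant) and 0.14, 0.01 and -0.15 in Control, so the groups overlapped. Some libraries were more alike between these groups than within them: the most alike pair of all 10 libraries was wild type (single mutant) replicate 2 with Control replicate 3, at a chi-square of 26.2 per gene, whereas Control replicates 2 and 3 differed by 114 and wild type (single mutant) replicates 2 and 3 by 130.

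**Figure D4:**
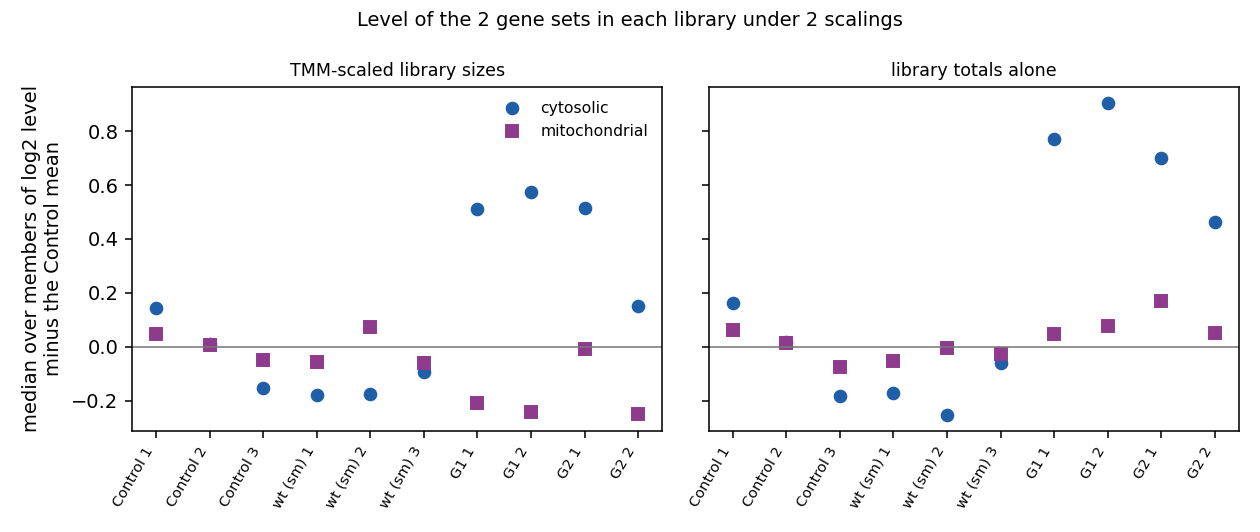
Median over the members of each set of log2(CPM + 1) minus the Control mean, in each library, under TMM-scaled library sizes (left) and library totals alone (right). The cytosolic medians of the 4 risk allele libraries were 0.15 to 0.57 on the left and 0.46 to 0.90 on the right. The mitochondrial medians were -0.25 to -0.01 on the left and 0.05 to 0.17 on the right, so their sign followed the scaling. The gap between the sets could hardly follow it, because scaling moves all genes of a library nearly alike.

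Between the alleles few members passed the test. In G2 against G1 DESeq2 called 1 cytosolic member higher and 6 lower, where it called 1222 of all genes higher and 1277 lower. With 3.84% of all genes called higher and 2.88% lower by edgeR, no cytosolic member was called by edgeR or by limma voom. In edgeR 12 cytosolic members had an unadjusted p under 0.05 (10 of them lower in G2), as did 4371 of all 17823 genes. The counts over all genes, 684 higher and 514 lower, depended on single libraries: they were 68 and 16 without G1 replicate 1, 11 and 11 without G1 replicate 2 and 145 and 46 without G2 replicate 2. The cytosolic median was -0.19, with 73 of 85 values negative, and the median of all genes was 0.04. Both G1 libraries lay above both G2 libraries for 34 cytosolic members (40%), against 26.7% of all genes. The cytosolic median per library, against the Control mean, was 0.51 and 0.57 in G1, 0.51 in the first G2 library and 0.15 in the second. Without the first G2 library the median of G2 against G1 was -0.45, with 4 members called lower.

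Mrpl44 was the single member called between the alleles, higher in G2 by 0.60 ± 0.13 (SE, log2; edgeR, adjusted p = 0.0311). Its G2 values of 45.1 and 41.8 CPM lay between the G1 values and the reference kidneys. The call was lost without either G1 library, either G2 library, Control replicate 1 or wild type (single mutant) replicate 1, with adjusted p up to 0.188 in edgeR, and with only the G1 and G2 libraries in the fit (adjusted p = 0.0597). The mitochondrial median was 0.09, with 54 of 78 values positive, and became -0.12 without G2 replicate 1. Both G1 libraries lay below both G2 libraries for 26 members (33.3%), against 29.2% of all genes. Rpl3l differed by 2.36 ± 0.65 and was not called (adjusted p = 0.0639).

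Of 8 ribosomal proteins that the symbols miss, 1 was called higher and 3 lower, where 19.3% of all genes were called higher and 18% lower. The 1 of 4 cytosolic ones called higher is near the share of all genes. Rack1, the scaffold on the small subunit, rose by 0.45 ± 0.12 (edgeR, adjusted p = 0.0153), the single one of 4 cytosolic proteins outside the symbol rule; Rpsa (0.28, adjusted p = 0.102) and Fau (0.22, adjusted p = 0.2) were not called. Of 4 mitochondrial ones, Ptcd3 (-0.69 ± 0.10, adjusted p = 0.00111), Dap3 (-0.38 ± 0.10, adjusted p = 0.0158) and Gadd45gip1 (-0.40 ± 0.11, adjusted p = 0.0196) fell. With library totals alone 3 of the 4 cytosolic ones were called higher (median 0.51) and 1 of the 4 mitochondrial ones lower (median -0.12).

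The lists of related genes are read against the 19.3% of all genes called higher and 18% called lower, and against the 6036 higher and 1601 lower with library totals alone. Of 50 genes that build the cytosolic ribosome 15 rose and 3 fell, with a median of 0.20 (37 and 0 with library totals alone, median 0.47). Of 12 genes of RNA polymerase I and its factors 2 rose, Taf1d by 0.54 and Polr1b by 0.25, with a median of 0.18. That share is no larger than that of all genes, and with library totals alone 10 were called higher (median 0.45). Npm1, a nucleolar chaperone of the pre-60S particle, was at 362 and 352 CPM in G1, 257 and 192 in G2 and 139 to 166 in the reference kidneys, and rose by 0.90 ± 0.11 (edgeR, adjusted p = 0.000526). Nop58 and Nop56, the core proteins of the box C/D particles that methylate ribosomal RNA, rose by 0.83 and 0.64. The 3 that fell, named after their values were seen, were Utp20, Bop1 and Imp4. Of 38 translation factors 5 rose and 6 fell, both below the shares of all genes, with a median of 0.039. With library totals alone 25 were called higher and 1 lower (median 0.31). Among them Eif4a1, the RNA helicase of initiation, rose by 0.64 and its paralog Eif4a2 fell by 0.64, from 269 to 305 CPM in Control to 152 and 164 in G1 and 201 and 222 in G2. Pabpc1, the poly(A)-binding protein, rose by 0.72.

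Genes that serve the mitochondrial ribosome included many that fell, against 18% of all genes, and fewer with library totals alone. Of 15 mitochondrial translation factors 11 fell, with a median of -0.52 (6 and -0.25 with library totals alone). Gfm1, the elongation factor that moves the mitochondrial ribosome along, was at 64.8 and 55.2 CPM in G1, 90 and 93.3 in G2 and 130 to 150 in the reference kidneys, and fell by 0.89 ± 0.09 (edgeR, adjusted p = 0.000198). Gfm2, which recycles that ribosome, fell by 0.82 and Taco1, an activator of Cox1 translation, by 1.25. Of 24 assembly genes 11 fell (median -0.25, but 4 lower, 1 higher and a median of 0.02 with library totals alone), among them Fastkd2, Mtg2 and Rmnd1, by 0.72, 0.70 and 0.82. Of 9 genes listed under mitochondrial transcription 5 fell (median -0.32, but 2 higher, 1 lower and a median of -0.044 with library totals alone). Among them were Twnk, a helicase of mitochondrial DNA replication rather than transcription, the polymerase Polrmt and the packaging factor Tfam, by 0.71, 0.32 and 0.39.

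Of 15 RNAs encoded by mitochondrial DNA 10 were tested and 6 fell, with a median of -0.59. With library totals alone 1 of the 10 was called lower (median -0.32). The 13 protein genes summed to 40120 to 70140 CPM in the risk allele libraries and 68830 to 93430 CPM in the others, and the first G2 library overlapped the reference kidneys. mt-Nd2, a subunit of complex I, changed by -0.68 ± 0.18 (edgeR, adjusted p = 0.0184) and mt-Nd6 by -0.57 ± 0.16 (adjusted p = 0.0225). Between 3 and 5 of the 15 RNAs were at 0 in each library. The RNAs mt-Atp8 and mt-Nd4l were at 0 in every library, and mt-Nd3 was at 0 in both G1 libraries, so the sum does not cover the whole mitochondrial genome. Both G1 libraries were lower than both G2 libraries for this sum.

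**Figure D5:**
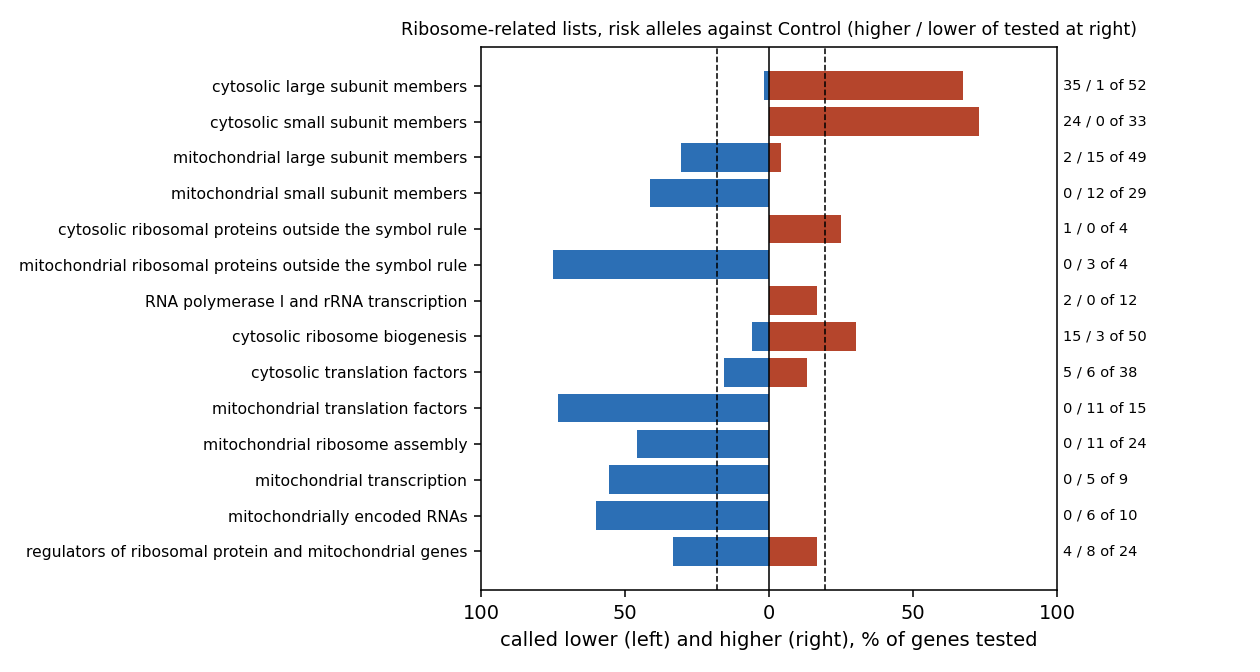
Share of tested genes called higher (right) or lower (left) in risk alleles against Control, for the 2 subunits of each ribosome and for 10 lists of related genes. Subunits are those named by the symbols. Dashed lines are the shares over all genes, 19.3% and 18%, and counts stand at the right. Cytosolic members and biogenesis genes lay to the right and mitochondrial lists to the left under TMM scaling; with library totals alone the medians of both mitochondrial subunits, of assembly genes and of the regulators turned positive.

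Of 24 regulators of these genes 4 rose and 8 fell (median -0.08), where 19.3% of all genes were called higher and 18% lower. With library totals alone 10 were called higher and 4 lower (median 0.19). Eif4ebp1, the mTOR-controlled repressor of initiation, was at 65.9 and 59.2 CPM in G1, 33.3 and 28 in G2 and 11.1 to 17.5 in the reference kidneys, and rose by 1.50 ± 0.13 (edgeR, adjusted p = 0.000112). Ppargc1a, a coactivator of mitochondrial biogenesis, was at 36.1 and 36.8 in G1, 31.3 and 40.8 in G2 and 64.4 to 95.3 in the reference kidneys, and fell by 0.92 ± 0.12 (adjusted p = 0.000597). Pprc1, its relative, rose by 0.89 ± 0.15 (adjusted p = 0.00216). For Eif4ebp1 all risk allele libraries lay above all reference kidneys, as for 16.4% of all genes tested. For Ppargc1a all risk allele libraries lay below all reference kidneys, as for 14% of all genes tested.

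Markers of several cell types moved in the same libraries, and their part in the ribosomal protein results was not tested. All 12 proximal tubule markers fell, with a median of -1.50, and summed to 4343 to 7545 CPM in the risk allele kidneys against 16500 to 19100 CPM in the others. All 12 macrophage markers rose (median 2.32), with sums of 870.5 to 1301 against 155.3 to 266.9 CPM, and all 10 markers of cycling cells rose (median 3.54), with sums of 78.04 to 285 against 13.52 to 22.03 CPM. Of 8 T cell markers 6 rose (14.02 to 34.08 against 4.345 to 12.38 CPM) and of 7 fibroblast markers 4 rose (574.9 to 1787 against 247 to 394.8 CPM). Of 6 neutrophil markers 3 were tested and rose (4.115 to 6.271 against 0.9919 to 2.353 CPM), with 1 to 3 at 0 in 8 libraries.

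Other nephron and vessel lists differed in how many of their markers were called. All 4 distal convoluted tubule markers fell (154.2 to 361.9 against 679.6 to 1424 CPM), 3 of 5 thick ascending limb markers fell and 1 rose (2955 to 4469 against 3942 to 5698 CPM), 1 of 6 collecting duct markers fell (259.8 to 1381 against 569.1 to 957.1 CPM) and 1 of 6 endothelial markers fell (155.8 to 451.3 against 218.3 to 419.4 CPM). In the last 2 lists the share called is near the 18% of all genes, and with library totals alone no endothelial marker and 1 thick ascending limb marker were called lower. None of 6 podocyte markers was called in edgeR or had an unadjusted p under 0.05 (178.2 to 279.4 against 179.3 to 487.4 CPM). Of 6 red cell markers 5 fell (49.71 to 288 against 362.9 to 1053 CPM), and of 6 B and plasma cell markers 1 fell (6.29 to 30.41 against 4.994 to 134.3 CPM). Between the alleles 9 of 10 cycling markers were lower in G2 (median -1.46), against 2.88% of all genes. Of 50 ribosome biogenesis genes 5 were lower in G2 (median -0.25). Called higher in G2, against 3.84% of all genes, were 4 of 6 red cell, 3 of 7 fibroblast and 3 of 6 endothelial markers. So were 2 of 4 distal convoluted tubule and 1 of 6 collecting duct markers, and of 12 proximal tubule markers 2 were higher and 2 lower. With library totals alone 0 endothelial markers were called between the alleles.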

How the data were processed

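The deposited files hold raw read counts per Ensembl gene for 10 mouse kidney libraries (single-end reads). Per the submitters' processing notes the authors aligned to GRCm38 and the tools listed are HTSeq 0.6.1, STAR 2.4.1d, Trim Galore, FastQC and CASAVA 1.8.2; the strand setting is not given in the sources used here, and the labels name 2 different RNA extraction kits. Of 46517 identifiers 46005 matched GENCODE M21 and 512 did not; unmatched ones stayed in the fit.

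Counts were tested in 1 edgeR 4.0.16 quasi-likelihood fit (R 4.3.3) of all 10 libraries with a mean per group, TMM factors, filterByExpr with a minimum count of 10 and Benjamini-Hochberg adjustment over 17823 genes. The common biological coefficient of variation was 0.249. Replicate numbers were given in accession order and only name libraries. Levels are TMM-scaled CPM; medians per library used log2(CPM + 1), a pseudocount of 1. Levels per kilobase used the best-supported shortest principal transcript. Library pairs were compared by chi-square over genes with at least 50 counts.

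The members and lists were chosen with earlier results of these data known. Genes named were, for each set, the 10 with the lowest p against Control, those called in the other comparisons or against their set's direction, the 3 highest and lowest per kilobase, the like paralogs with their partners and, from other lists, 3 by lowest p. Alternatives were library totals, DESeq2 size factors, no filter, the compared groups only, limma voom (limma 3.58.1), DESeq2 1.42.0, the reference groups merged and each library left out. In simulated data for risk alleles against Control (17368 genes in the fit, 200 changed), the fit called 2 of 50 genes changed 1.25-fold, 5 of 50 at 1.5-fold, 23 of 50 at 2-fold and 46 of 50 at 4-fold, and 3 of 17171 unchanged genes. The changed genes were drawn from all genes tested, with the spread typical of their level. In the real data 3441 genes were called higher and 3212 lower, far more than were changed in the simulation. These shares therefore do not give the recovery of ribosomal protein members.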

Additional observations from a re-analysis of the deposited data

Results flagged for a closer look

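Mrpl44, the mitochondrial large subunit protein, differed between the 2 risk alleles, whose shared Control makes the test of G2 against G1 the test of the difference between their effects: the value was 0.60 on the log2 scale (edgeR, adjusted p = 0.0311), with 28.4 and 28.9 CPM in G1 and 45.1 and 41.8 CPM in G2. The call was lost without either G1 library, either G2 library, Control replicate 1 or wild type (single mutant) replicate 1.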

How the results depend on the processing

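No paired analysis was possible because the labels give no replicate numbers; those used here only name libraries. With library totals alone the cytosolic medians were 0.71 (reference Control) and 0.87 (reference wild type (single mutant)), and the mitochondrial medians turned positive, 0.11 and 0.14, with 15 and 17 mitochondrial members called higher and 4 and 5 lower. On that scale the cytosolic level against Control was 0.84 in G1 and 0.58 in G2 (0.54 and 0.33 with TMM), the mitochondrial level was 0.061 and 0.11 (-0.23 and -0.13 with TMM), and in G2 against G1 the mitochondrial median was 0.036 and 1 cytosolic member was called lower. Only the scaling differed, and which scale lies nearer the true levels was not tested.

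In G2 against G1, DESeq2 called 1 cytosolic member higher, 6 lower and 1 mitochondrial member lower, where it called 1222 of all genes higher and 1277 lower. Without the filter, and with only the compared groups, 1 cytosolic member was called higher and 0 mitochondrial members higher. Of all genes 751 were called higher without the filter and 451 with only the compared groups. The cause was not tested.

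Leaving out 1 library at a time, the cytosolic members called higher against Control numbered 34 to 64 and those called lower 0 to 1, and the mitochondrial ones 1 to 3 higher and 12 to 27 lower. The cytosolic count was 34 without Control replicate 3, where 2632 of all genes were called higher, against 3441 in the full fit. It was also smaller than in the full fit without G1 replicate 2 or G2 replicate 1, fits that leave 1 library in a group. The mitochondrial lower count was 15 without Control replicate 1 and 17 without Control replicate 2. Of all genes 2546 and 2685 were called lower in these fits, against 3212 in the full fit. The mitochondrial lower count was also smaller than in the full fit without either G1 library or without G2 replicate 2. The mitochondrial median ranged from -0.23 to -0.094 against Control and from -0.22 to -0.083 against wild type (single mutant), where 2 to 4 mitochondrial members were called higher. In G2 against G1 the cytosolic median ranged from -0.45 to -0.063 with 0 to 1 members higher and 0 to 4 lower, and the mitochondrial median from -0.12, without G2 replicate 1, to 0.17, with 0 to 1 higher and 0 to 1 lower.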
